A study of Mus musculus with 16 samples.

Results

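Among the genes that shifted strongly when LSD1 was deleted from muscle are several with little-known roles in that tissue. The 5 genes described here are Mtus2, Mettl21e, its paralog Mettl21c, 4933415F23Rik and Orm3, out of 24421 genes in the count tables. Mtus2, Mettl21e and 4933415F23Rik were selected for their shift in soleus (Sol) muscle and Orm3 for its shift in gastrocnemius (Gas) muscle. The measured difference between LSD1-mKO and WT in that muscle is what they were chosen by, so there their genotype differences are given as a description, without a test. Mettl21c entered only because it is the paralog of Mettl21e, and it was tested in both muscles. Gas was tested as well for Mettl21e and 4933415F23Rik, while Mtus2 in Gas and Orm3 in Sol fell below the filter on low counts.

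The data are poly(A) RNA-seq read counts from Gas, which consists mostly of fast fibers, and Sol, which is rich in slow fibers. All mice were C57BL/6 males aged 8 weeks; each received 75 mg/kg of tamoxifen on 5 days and 1 mg/kg of dexamethasone (Dex), a synthetic glucocorticoid that wastes muscle, on 7 days, so no muscle free of Dex was compared. The mice called WT carried floxed Lsd1 alleles without a Cre transgene, and LSD1-mKO mice carried Lsd1 flox/flox with the ACTA1-CreERT2 transgene, which deletes Lsd1 in muscle fibers and leaves the other cells of the tissue intact. There were 3 WT and 5 LSD1-mKO libraries of each muscle, 16 in all, with 10130415 to 24576377 reads assigned to genes. The Gas and Sol libraries form separate sets in the labels, so a difference between muscles cannot be told apart from one between library sets.

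Kdm1a, the gene of LSD1, fell from 40.9 ± 3.21 to 14.3 ± 2.26 CPM (reads scaled by library size, mean ± SD, n = 3 and 5) in Gas and from 34.1 ± 0.522 to 10.9 ± 1.70 CPM in Sol, with no overlap between genotypes. Its log2 fold changes were -1.56 (SE 0.178, adjusted p = 0.0177, edgeR quasi-likelihood test) and -1.66 (SE 0.143, adjusted p = 0.000574). The muscles matched their labels: the summed level of 10 slow fiber markers was 24900 to 33700 CPM in Sol and 1220 to 3010 CPM in Gas. In bulk muscle, fewer cells of a type and less RNA per cell cannot be told apart. Summed over 10 adipocyte markers, of which 9 had reads in every library, the level was 3900 to 6540 CPM in WT and 1880 to 3250 CPM in LSD1-mKO Gas, and 2620 to 4740 CPM in WT and 1080 to 2410 CPM in LSD1-mKO Sol. Car3, which muscle fibers also express, carried much of this sum: without it the genotypes overlapped, at 1220 to 2290 CPM against 1200 to 1520 CPM in Gas and 1050 to 1850 CPM against 897 to 1160 CPM in Sol. None of the 9 markers tested was called; in Gas 7 had negative log2 fold changes, from -1.82 for Car3 to -0.13 for Plin1, and Plin4 (0.22) and Cidec (0.59) were positive. The part of these other cells in the results below was not tested. Ribosomal protein genes stood highest in WT Gas library 3, at a mean of 8.67 log2 CPM, and LSD1-mKO Gas library 5, at 8.04, while the other libraries lay between 6.56 and 7.61.

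The 5 genes belong to 4 families. Mtus2 encodes a microtubule plus-end tracking protein that binds the end-binding protein EB1 and brings a depolymerising kinesin to growing microtubule ends. Mettl21e and Mettl21c encode METTL21-type lysine methyltransferases, enzymes that methylate chaperones and related ATPases such as VCP, the segregase that delivers ubiquitinated proteins to the proteasome. Both are expressed in skeletal muscle. The gene 4933415F23Rik has the RefSeq symbol Ppp1r14bl, which places it beside Ppp1r14b, the gene of an inhibitor subunit of protein phosphatase PP1. Orm3 encodes an orosomucoid, or acid glycoprotein, one of the plasma lipocalins that the liver secretes in the acute phase and under glucocorticoids.

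Mettl21e (chromosome 1, 44204070 to 44218961, minus strand, GRCm38) and Mettl21c (chromosome 1, 44009408 to 44020034, minus strand) lay 184.0 kb apart. Their coding sequences shared 61.2% of 711 aligned bases. Their most alike stretch of 75 coding bases, the length of one read, is shown because it bears on whether reads could be mistaken between the paralogs. The sequences are from GENCODE transcripts on GRCm38, at chr1:44206546-44206620 and chr1:44009826-44009900, and capitals mark the 24 bases of Mettl21c that differ from Mettl21e.
Mettl21e: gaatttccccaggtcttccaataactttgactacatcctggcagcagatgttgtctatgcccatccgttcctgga
Mettl21c: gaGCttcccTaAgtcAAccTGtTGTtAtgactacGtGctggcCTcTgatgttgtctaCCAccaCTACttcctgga
No window of 75 bases was shared by the transcripts of the paralogs, so their counts are separate measurements.

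Mettl21e stood lower in LSD1-mKO than in WT in both muscles. In Gas, the WT libraries held 15.7, 21.4 and 19.0 CPM (mean 18.7 ± 2.89 SD, n = 3). The LSD1-mKO libraries held 1.01, 2.34, 0.36, 4.62 and 4.08 CPM (2.48 ± 1.86, n = 5). The highest LSD1-mKO library lay below the lowest WT library. The WT mean was 7.54 times the LSD1-mKO mean, with -2.97 (SE 0.557) as the log2 fold change, but this difference did not pass the test over all genes in Gas (adjusted p = 0.18, edgeR quasi-likelihood test). That test called only 4 of 13040 genes in Gas (0.0307%), while 6.94% of them had no overlap between genotypes. The same Gas difference passed in the edgeR exact test (adjusted p = 0.000416), in DESeq2 (adjusted p = 0.000313) and when all 16 libraries shared one fit (adjusted p = 0.0423). That shared fit takes its spread partly from the Sol libraries that selected the gene, so its p is not free of the selection. The labels do not say whether Gas and Sol libraries of the same number came from the same mouse. If they did, the tests on Gas alone are not free of the selection either.

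In Sol, where Mettl21e was selected, the WT libraries held 11.2, 12.8 and 5.68 CPM (9.90 ± 3.74). The LSD1-mKO libraries held 0.275, 1.12, 0.171, 2.28 and 2.08 CPM (1.19 ± 0.983). Every LSD1-mKO library was below every WT library, and the log2 fold change was -3.10 (SE 0.593). Of 13342 genes tested in Sol, 10.9% had no overlap between genotypes, and this gene was chosen by its difference there. From the highest level to the lowest, the order of the groups was WT Gas, WT Sol, LSD1-mKO Gas and LSD1-mKO Sol. The Sol minus Gas log2 difference was -0.94 (SE 0.678, 95% interval -2.27 to 0.39) in WT and -1.04 (SE 0.62, interval -2.26 to 0.17) in LSD1-mKO. In this fit without a block, neither step between muscles exceeded its spread. With the replicate block, which compares libraries of the same number, the LSD1-mKO difference was -1.12 (SE 0.262) and did exceed it. The Sol libraries of both genotypes belong to the contrast that selected the gene, and these differences are a description without a test.

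**Figure D1:**
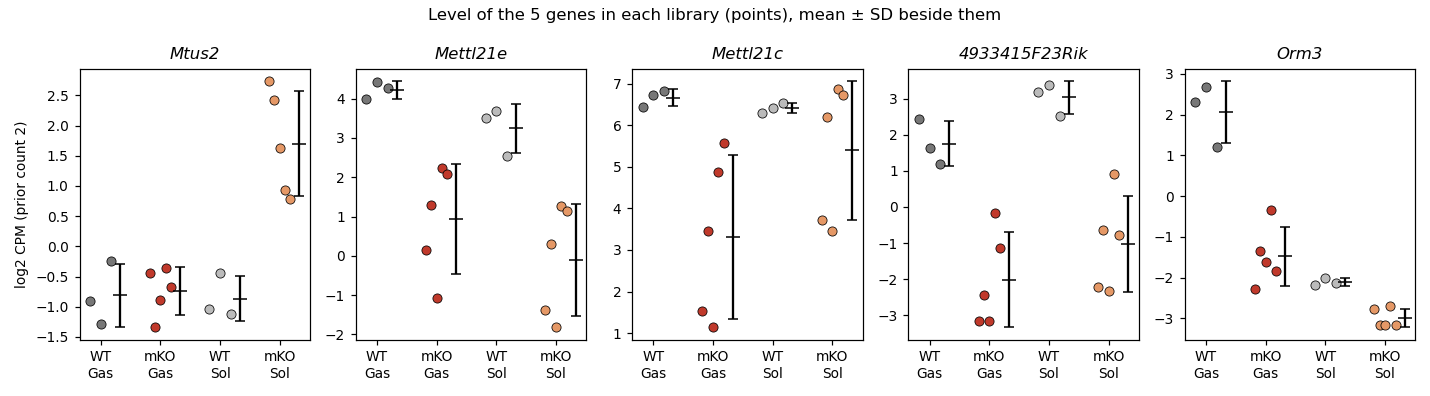
Level of each gene in the 16 libraries, as log2 CPM with a prior count of 2 (y axis), by genotype and muscle (x axis; mKO is LSD1-mKO). Points are libraries and bars are the mean ± SD of the log2 values (n = 3 WT and 5 LSD1-mKO per muscle). Mtus2 stood out in LSD1-mKO Sol alone, Mettl21e and 4933415F23Rik were low in both LSD1-mKO groups, Mettl21c was spread widely in both, and Orm3 was high in WT Gas.

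Mettl21c showed the same direction as its paralog in Gas and wide spread in Sol. The WT Gas libraries held 86.2, 105 and 113 CPM (101 ± 13.9). The LSD1-mKO Gas libraries held 2.78, 10.8, 2.09, 29.4 and 47.5 CPM (18.5 ± 19.6). The groups did not overlap, as for 6.94% of all genes tested in Gas. The highest WT library held 1.31 times the lowest, against 22.8 times among the LSD1-mKO libraries. The log2 fold change was -2.49 (SE 0.817) and did not pass the test (adjusted p = 0.441, edgeR quasi-likelihood test), nor did it in DESeq2 (adjusted p = 0.292) or the exact test (adjusted p = 0.126).

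In Sol, the WT libraries held 78.7, 85.7 and 92.4 CPM of Mettl21c (85.6 ± 6.87). The LSD1-mKO libraries held 13.1, 73.6, 10.9, 117 and 106 CPM (64.1 ± 50.1). Libraries 1 and 3 lay far below WT, library 2 just below it, and libraries 4 and 5 above it. The genotypes therefore overlapped, and the log2 fold change of -0.43 (SE 0.646) did not pass (adjusted p = 0.806, edgeR). The genotype effect in Sol minus that in Gas was 2.08 on the log2 scale (SE 1.18, 95% interval -0.24 to 4.39), which did not pass the interaction test (adjusted p = 0.987, edgeR). The interaction test called 0 of 13749 genes, with 671 at an unadjusted p under 0.05 and 21 called by DESeq2. Sol against Gas called 17.0% of 13749 genes in WT and 24.5% in LSD1-mKO. In these and the following values, muscle and library set cannot be told apart. In WT, the level of Mettl21c in Sol and Gas did not differ beyond its spread (log2 difference -0.28, SE 0.92, adjusted p = 0.867). In LSD1-mKO, Sol held more than Gas by 1.80 on the log2 scale (SE 0.742, adjusted p = 0.0856, edgeR), which did not pass. With the replicate block the difference was 2.10 (SE 0.215, adjusted p = 6.68e-05). That p holds only if LSD1-mKO libraries of the same number belong together. The labels do not say so, and the block was relied on because these libraries correlated in the same data. Every LSD1-mKO library number had more Mettl21c in Sol than in Gas. With each of the 16 libraries left out in turn, the unblocked difference ranged from 1.45 to 2.57 (adjusted p = 0.0266 to 0.197, edgeR). It passed in only 2 of these fits. Without LSD1-mKO Gas library 5 it was 2.57 (adjusted p = 0.0266), and without LSD1-mKO Sol library 3 it was 2.06 (adjusted p = 0.0492).

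**Figure D2:**
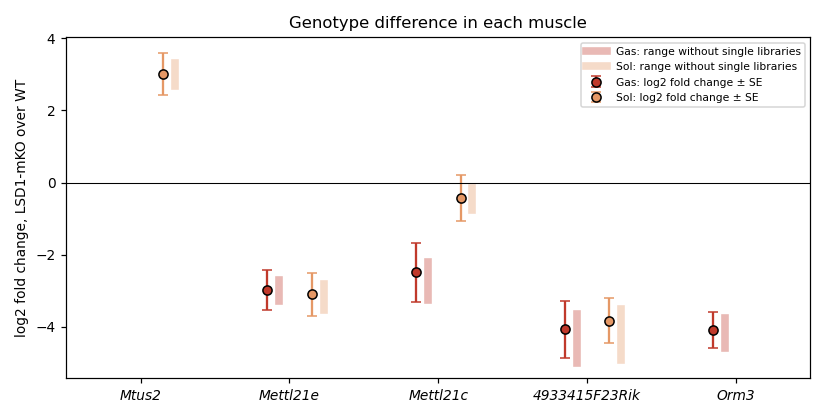
Genotype difference of each gene as log2 fold change of LSD1-mKO over WT (y axis) in Gas and Sol. Points are the estimates with their SE from the 8 libraries of a muscle, and shaded bars span the estimates when each library was left out in turn. Mtus2 in Gas and Orm3 in Sol are missing because their counts were below the filter; the bars of Mettl21c in Sol reached from -0.76 to -0.15, while the other negative values stayed below -2.

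The gene 4933415F23Rik has its transcript on chromosome 1, 23100473 to 23102253 (minus strand, GRCm38). The sequence before its start in RefSeq (chr1:23102254-23102503, minus strand, 250 bases) is printed because its log2 fold change in Sol was the most negative of the 5 genes. Capitals mark matches, on either strand, to the hexamer bound by the glucocorticoid receptor (TGTTCT) and the E-box preferred by MyoD and myogenin (CAGCTG).
4933415F23Rik: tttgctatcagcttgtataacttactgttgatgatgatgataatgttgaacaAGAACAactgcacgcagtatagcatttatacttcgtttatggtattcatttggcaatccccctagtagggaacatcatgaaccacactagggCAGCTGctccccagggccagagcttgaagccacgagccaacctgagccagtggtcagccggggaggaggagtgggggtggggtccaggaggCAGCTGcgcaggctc
The hexamer lay 198 bases before the start and the E-boxes 106 and 15 bases before it. Of 32851 promoters in the RefSeq table, 16.1% held this hexamer and 13% the E-box in windows of the same length. The forkhead motif GTAAACA, which 3.2% of promoters held, the estrogen receptor hexamer AGGTCA (14.0%) and the MEF2 motif (3.2%) had no match there.

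In WT Gas, 4933415F23Rik held 5.26, 3 and 2.18 CPM (3.48 ± 1.59), from 99, 50 and 21 reads. In LSD1-mKO Gas it had 0, 1, 0, 8 and 6 reads, a mean of 0.236 ± 0.33 CPM. The libraries with no read allow up to 3 reads each, by counting error alone. The groups did not overlap, as for 6.94% of all genes tested in Gas, and the WT mean was 14.7 times the LSD1-mKO mean. The log2 fold change of -4.07 (SE 0.781) did not pass the test in Gas (adjusted p = 0.18, edgeR quasi-likelihood test), nor in DESeq2 (adjusted p = 0.135). It passed in the exact test (adjusted p = 0.00141) and in the fit of all 16 libraries (adjusted p = 0.0388). That fit takes its spread partly from the Sol libraries that selected the gene. If Gas and Sol libraries of the same number came from the same mouse, the tests on Gas alone are not free of the selection either.

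In Sol, where it was selected, WT libraries held 9.05, 10.4 and 5.63 CPM (8.36 ± 2.46) and LSD1-mKO libraries held 0.103, 0.532, 0.0855, 1.75 and 0.468 CPM (0.588 ± 0.681). Again all LSD1-mKO libraries were below all WT libraries, with library 4 the highest of them, and 10.9% of all genes tested in Sol had no overlap. The log2 fold change was -3.83 (SE 0.62). The order of the groups was WT Sol, WT Gas, LSD1-mKO Sol and LSD1-mKO Gas. The Sol minus Gas log2 difference was 1.23 (SE 0.719, 95% interval -0.18 to 2.64) in WT and 1.52 (SE 0.888, interval -0.22 to 3.26) in LSD1-mKO. Both lay within the spread of the fit without a block, again as a description.

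Mettl21e, Mettl21c and 4933415F23Rik took a like order over the LSD1-mKO libraries. In both muscles, LSD1-mKO libraries 1 and 3 held the least and libraries 4 and 5 the most Mettl21e and Mettl21c. For 4933415F23Rik, libraries 1 and 3 were again the lowest and library 4 the highest in each muscle. After subtracting each group's mean from the log2 CPM, Mettl21e and Mettl21c correlated with Pearson r = 0.95 in Gas (n = 8, exact permutation p = 0.0208; Spearman rho = 0.90, p = 0.025) and r = 0.94 in Sol (p = 0.0194; rho = 0.88, p = 0.0375). Without the 2 libraries farthest from the median of Mettl21e, r was 0.97 and 0.79.

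Between Mettl21e and 4933415F23Rik, r was 0.80 in Gas (n = 8, exact permutation p = 0.0778; rho = 0.83, p = 0.0722) and 0.91 in Sol (p = 0.00833; rho = 0.90, p = 0.0278), and without the 2 farthest libraries 0.65 and 0.78. Between Mettl21c and 4933415F23Rik, r was 0.83 in Gas (n = 8, exact permutation p = 0.0722; rho = 0.74, p = 0.126) and 0.87 in Sol (p = 0.0333; rho = 0.83, p = 0.0722), and 0.81 and 0.65 without the 2 farthest. These two-sided tests permuted libraries within their genotype, and 20 relations were computed. After Benjamini-Hochberg adjustment over them none passed, with adjusted p = 0.139 for r between Mettl21e and Mettl21c in each muscle by exact permutation. The labels do not say whether libraries of the same number came from the same mouse. The LSD1-mKO libraries of the same number deviated together over all genes, with correlations of 0.21 to 0.36 between Gas and Sol, so the muscles are not independent repeats of this pattern.

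**Figure D3:**
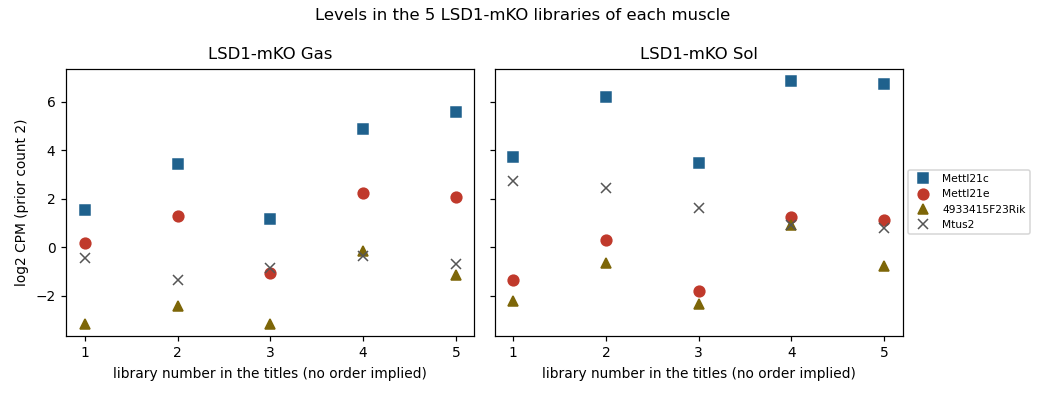
Levels of 4 genes in the 5 LSD1-mKO libraries of Gas (left) and Sol (right), as log2 CPM with a prior count of 2 (y axis), by library number in the titles (x axis). Points are single libraries. Levels compare libraries of one gene, not genes, since transcript length was not corrected for. Mettl21c, Mettl21e and 4933415F23Rik were lowest in libraries 1 and 3 of each muscle, whereas Mtus2 in Sol was highest in library 1.

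The genes whose pattern was most like that of these 3 genes were sought among those averaging at least 50 reads per library, by Pearson r over the 16 libraries. With group means subtracted, the nearest to Mettl21c were Ostn (r = 0.99), which encodes the secreted muscle peptide musclin, 2310020H05Rik (0.96) and Mettl21e (0.94). The nearest to Mettl21e were 2310020H05Rik (0.97), 2310065F04Rik (0.95) and Lgi1 (0.94), and the nearest to 4933415F23Rik were 2310015D24Rik (0.92), 2310020H05Rik (0.91) and 2310065F04Rik (0.88). The name 2310020H05Rik therefore recurred for all of them. Ostn itself held 4.78 to 6.60 CPM in WT Gas, 0.216 to 2.27 CPM in LSD1-mKO Gas, 26.3 to 35.9 CPM in WT Sol and 1.58 to 10.8 CPM in LSD1-mKO Sol. Its genotypes did not overlap in either muscle, as for 6.94% of all genes tested in Gas and 10.9% in Sol. Its log2 fold changes of -2.54 in Gas and -2.37 in Sol did not pass (adjusted p = 0.318 and 0.0624, edgeR).

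With muscle means subtracted instead, so that the genotype difference stayed in, Mettl21e was nearest to Ostn (r = 0.97), Pak1 (0.96), the gene of a kinase at the actin cytoskeleton, and 2310020H05Rik (0.96). Mettl21c was nearest to Mrln (0.94), which encodes myoregulin, a small inhibitor of the calcium pump SERCA, to Rtn4 (0.93) and to 2310065F04Rik (0.93). For 4933415F23Rik these were Mettl21e (0.96), Ostn (0.95) and Rab28 (0.93). These values share the libraries and their scaling, and they are a description.

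**Figure D4:**
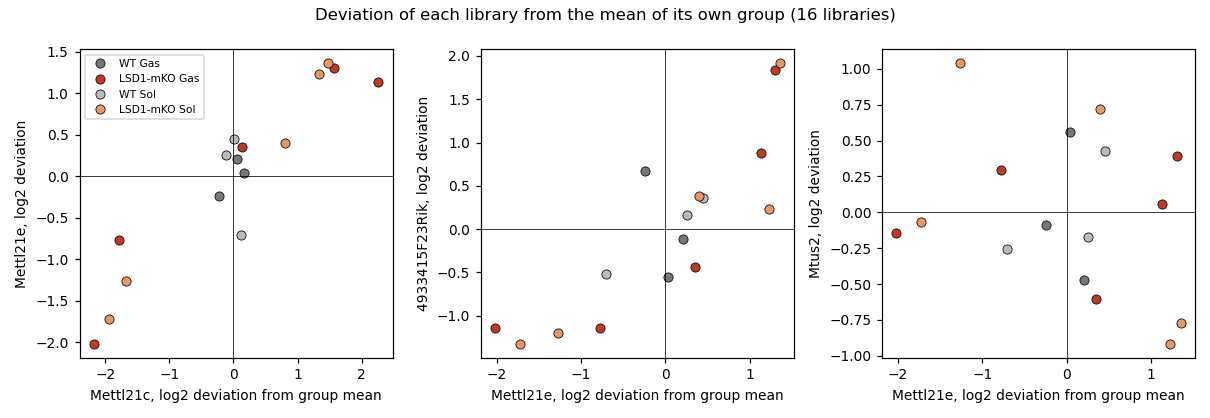
Deviation of each of the 16 libraries from the mean of its own group, in log2 CPM, for 3 pairs of genes (x and y axes); each point is a library, coloured by group. The points of Mettl21c and Mettl21e, and of Mettl21e and 4933415F23Rik, rise along a diagonal, and LSD1-mKO libraries lie at both ends; those of Mettl21e and Mtus2 do not, with r = 0.12 in Gas and -0.51 in Sol.

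Mtus2 (chromosome 5, 147957320 to 148316065, plus strand, GRCm38) was the only one of the 5 genes that stood higher in LSD1-mKO. In WT Sol it had 7, 9 and 6 reads, or 0.375, 0.624 and 0.348 CPM (0.449 ± 0.152). In LSD1-mKO Sol it had 191, 89, 70, 44 and 31 reads, or 6.57, 5.26, 2.99, 1.79 and 1.61 CPM (3.64 ± 2.19). The groups did not overlap, as for 10.9% of all genes tested in Sol. The LSD1-mKO mean was 8.12 times the WT mean, with a log2 fold change of 3.02 (SE 0.58). The LSD1-mKO libraries spanned 4.08 times from lowest to highest.

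In Gas, Mtus2 stayed near the limit of detection. WT libraries had 8, 5 and 7 reads (0.484 ± 0.22 CPM) and LSD1-mKO libraries had 13, 4, 6, 7 and 9 reads (0.504 ± 0.156 CPM). The genotypes overlapped. Mtus2 was below the filter on low counts in Gas, and without a filter the genotype difference was 0.09 on the log2 scale (SE 0.528, adjusted p = 0.962, edgeR). LSD1-mKO Sol was thus the only group above the others, whose 3 means, between 0.449 and 0.504 CPM, did not differ beyond their spread. Within LSD1-mKO, Sol held more Mtus2 than Gas by 2.86 on the log2 scale (SE 0.42), and within WT the difference was -0.07 (SE 0.654). These values are a description: their Sol libraries selected the gene, and it passed the filter through LSD1-mKO Sol.

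The sequence before the Mtus2 start in RefSeq, printed because this gene stood higher in LSD1-mKO, is the following (chr5:147957070-147957274, plus strand), with capitals on the estrogen receptor hexamer AGGTCA, 187 bases before the start used in the table. The sequence stops where the RefSeq gene begins, short of that start. The other 4 motifs had no match in the 250 bases searched.
Mtus2: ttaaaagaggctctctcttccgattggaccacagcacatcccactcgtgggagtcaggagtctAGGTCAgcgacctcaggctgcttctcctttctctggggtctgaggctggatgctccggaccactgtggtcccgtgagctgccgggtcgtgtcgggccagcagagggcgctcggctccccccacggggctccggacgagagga

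With muscle means subtracted, the genes most like Mtus2 over the 16 libraries were Cyb5r3 (r = 0.92), which encodes a cytochrome b5 reductase, Ctsz (0.91), the gene of the lysosomal protease cathepsin Z, and Cd24a (0.90). Their log2 fold changes in Sol were 0.91, 1.12 and 1.02, a direction that this choice of genes fixes, since the genotype difference of Mtus2 entered it. With group means subtracted they were Tubb5 (0.84), which encodes a beta-tubulin, Fam45a (0.83) and Csrp2 (0.83). The summed level of 8 satellite cell markers was 240 to 285 CPM in WT Sol and 315 to 507 CPM in LSD1-mKO Sol, without overlap, but without Itga7 (log2 fold change 1.05, adjusted p = 0.0155, edgeR) it was 129 to 177 CPM against 108 to 233 CPM. Of the 8 markers, 6 had positive log2 fold changes, and Chodl (-0.88) and Calcr (-0.21) had negative ones. The 10 macrophage markers summed to 150 to 208 CPM in WT Sol and 121 to 301 CPM in LSD1-mKO Sol, with overlap; 7 had positive log2 fold changes, Cd68 the largest at 1.95 (adjusted p = 0.0699, edgeR), and none was called. The part of these lists in the Mtus2 difference was not tested.

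Orm3 (chromosome 4, 63356162 to 63359511, plus strand, GRCm38) lies between Orm1, 8.0 kb away, and Orm2, 2.9 kb away. The coding sequence of Orm3 shared 86.4% of its bases with Orm1 and 88.3% with Orm2. The most alike 75 coding bases show how close the copies come to sharing a read; capitals mark the base that differs from Orm3 (chr4:63357807-63357881, chr4:63346300-63346374 and chr4:63364180-63364254, plus strand).
Orm3: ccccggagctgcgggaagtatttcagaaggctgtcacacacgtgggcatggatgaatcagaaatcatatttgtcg
Orm1: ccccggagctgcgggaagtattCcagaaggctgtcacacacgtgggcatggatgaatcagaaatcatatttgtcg
Orm2: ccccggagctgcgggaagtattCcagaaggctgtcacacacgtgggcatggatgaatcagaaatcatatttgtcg
Only 0.1% of the 75-base windows of the Orm3 transcript occurred in another gene, compared with 13.8% for Orm1 and 14.0% for Orm2. A read from such a stretch with a sequencing error could still be placed on the wrong copy, so small counts beside a larger neighbour are uncertain.

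In WT Gas, Orm3 had 91, 104 and 21 reads, or 4.83, 6.24 and 2.18 CPM (4.42 ± 2.06). In LSD1-mKO Gas, where it was selected as lower, it had 2, 4, 3, 7 and 3 reads, or 0.0959, 0.283, 0.216, 0.674 and 0.17 CPM (0.288 ± 0.226). The groups did not overlap, as for 6.94% of all genes tested in Gas, and the WT mean was 15.4 times the LSD1-mKO mean. The log2 fold change was -4.09 (SE 0.501). WT Gas library 3, the lowest of its group, still held more than 3 times the highest LSD1-mKO library.

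In Sol, Orm3 was hardly detected in either genotype. Each WT library had 2 reads, and the LSD1-mKO libraries had 1, 0, 0, 1 and 0 reads. Both groups lie at or under the 3 reads that a count of 0 allows, so no genotype fold is given for Sol. In WT, the 216 reads of Gas against 6 of Sol gave a ratio of 40.2 after scaling for depth, with an exact 95% interval of 18.2 to 111 that covers counting error only. In LSD1-mKO, 19 reads in Gas against 2 in Sol gave a ratio of 14.0 (interval 3.37 to 124). The Gas libraries of both genotypes belong to the contrast that selected the gene, so these ratios are a description without a test. The order of the levels was WT Gas, LSD1-mKO Gas, WT Sol and LSD1-mKO Sol, of which only WT Gas stood clear of 3 reads in all its libraries.

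**Figure D5:**
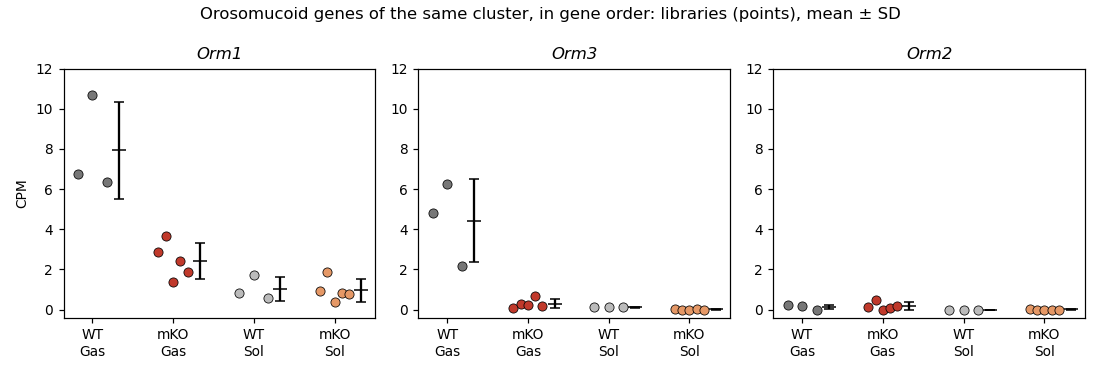
CPM of Orm1, Orm3 and Orm2 (y axis, same scale) in the 16 libraries by group (x axis; mKO is LSD1-mKO), in their order on chromosome 4. Points are libraries and bars are the mean ± SD (n = 3 WT and 5 LSD1-mKO per muscle). Orm1 and Orm3 were highest in WT Gas, Orm1 kept 1.37 to 3.68 CPM in LSD1-mKO Gas, and Orm2 stayed below 0.5 CPM throughout.

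Orm1 held 6.75, 10.7 and 6.34 CPM in WT Gas (7.92 ± 2.40) and 2.88, 3.68, 1.37, 2.41 and 1.87 CPM in LSD1-mKO Gas (2.44 ± 0.895). These groups did not overlap either, as for 6.94% of all genes tested in Gas. The log2 fold change of -1.74 (SE 0.31) did not pass the test (adjusted p = 0.18, edgeR quasi-likelihood test). It passed in DESeq2 (adjusted p = 0.000313) and the exact test (adjusted p = 0.000191). In Sol, Orm1 held 1.04 ± 0.612 CPM in WT and 0.96 ± 0.559 CPM in LSD1-mKO, which is -0.14 on the log2 scale (SE 0.505, adjusted p = 0.932, edgeR). Orm2 had between 0 and 7 reads in every library. The transcripts of Orm1 and Orm3 are 775 and 773 bases long, so that their CPM can be compared, and Orm1 was the higher of the pair in each group.

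Summed hepatocyte markers were 74.4 to 99.7 CPM in WT Gas and 51.0 to 135 CPM in LSD1-mKO Gas, with 4 of 10 markers detected in every library and Serpina1c at 0 in WT. Neutrophil markers, another cell type that holds orosomucoid, summed to 63.6 to 88.8 CPM in WT Gas and 39.8 to 246 CPM in LSD1-mKO Gas. Both of these lists overlapped between genotypes. The 10 fibroblast markers summed to 1610 to 1990 CPM in WT Gas and 971 to 1260 CPM in LSD1-mKO Gas, without overlap; all 10 had negative log2 fold changes and none was called. The adipocyte sum, as given above, did not overlap in Gas with Car3 and overlapped without it. The part of either list in the Orm3 difference was not tested.

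Upstream of Orm3 and Orm2 the sequences were close copies, and they are shown because these neighbours differed in level in WT Gas. They cover chr4:63355908-63356068 and chr4:63362199-63362448 (plus strand, RefSeq); the Orm3 sequence stops where the RefSeq gene begins, short of the later start from which the table's window and the distances here are counted. Capitals mark the E-box CAGCTG in Orm3, 165 bases before that start, and the glucocorticoid receptor hexamer, written AGAACA on this strand, in Orm2, 128 bases before its own start.
Orm3: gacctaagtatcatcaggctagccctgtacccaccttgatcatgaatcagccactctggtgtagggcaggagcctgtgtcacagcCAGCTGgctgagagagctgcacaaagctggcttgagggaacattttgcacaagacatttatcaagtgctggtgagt
Orm2: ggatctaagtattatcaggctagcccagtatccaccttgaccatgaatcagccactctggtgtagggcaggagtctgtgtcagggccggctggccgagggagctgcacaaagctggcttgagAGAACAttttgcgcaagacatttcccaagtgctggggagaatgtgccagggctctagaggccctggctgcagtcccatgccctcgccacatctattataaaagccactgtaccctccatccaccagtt
Neither motif occurred in the other window. These matches describe the letters and not binding.

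With muscle means subtracted, the genes most like Orm3 were Phka1 (r = 0.88), which encodes a regulatory subunit of the muscle phosphorylase kinase, Kcnab1 (0.88), a potassium channel subunit gene, and Smox (0.85), the gene of spermine oxidase. Their log2 fold changes in Gas were -1.31, -1.56 and -1.14, a direction that this choice of genes fixes, since the genotype difference of Orm3 entered it. None passed (adjusted p = 0.248, 0.0551 and 0.18, edgeR), and these values are a description. With group means subtracted they were Topbp1 (0.89), Nid2 (0.87) and Aph1a (0.86), for a gene with few reads outside WT Gas.

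Of the nearest relatives of the 5 genes, 1 was called. Mtus1, the paralog of Mtus2, had log2 fold changes of 0.06 (SE 0.296) in Gas and -0.06 (SE 0.276) in Sol. Among the METTL21 enzymes, Mettl21a, which methylates Hsp70 chaperones, had 0.31 (SE 0.192, adjusted p = 0.595) and 0.42 (SE 0.133, adjusted p = 0.161, edgeR). Vcpkmt, which methylates VCP, had -0.22 (SE 0.333) and 0.30 (SE 0.332), and Mettl21b had at most 2 reads in a library. A wider list of 13 tested protein methyltransferases held these enzymes, Mettl21e and Mettl21c themselves, and others such as Mettl10, N6amt2 and Mettl13. None was called in Gas (median log2 fold change -0.42, against 0.01 over all genes tested). In Sol, Mettl21e alone was called, in the contrast that selected it (median -0.08, against -0.01 over all genes, of which 0.967% were called). In each muscle, 9 of the 13 had negative values and 4 positive ones.

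This relative was in the PP1 inhibitor family. Ppp1r14b rose in Sol from 24.4, 28.0 and 19.8 CPM in WT (24.1 ± 4.10) to 56.4, 58.6, 42.0, 35.3 and 43.9 CPM in LSD1-mKO (47.2 ± 9.93). The groups did not overlap, whereas 10.9% of all genes tested in Sol did not. The log2 fold change was 0.95 (SE 0.193, adjusted p = 0.0461, edgeR quasi-likelihood test). The call was lost in the fit of all 16 libraries (adjusted p = 0.0653), without any single WT Sol library and without LSD1-mKO Sol library 1, 2 or 3 (adjusted p = 0.0676 to 0.178). In Gas, Ppp1r14b was 60.7 ± 6.52 CPM in WT and 65.6 ± 17.4 CPM in LSD1-mKO (log2 fold change 0.07, SE 0.245, adjusted p = 0.925, edgeR). The difference of these effects was 0.91 on the log2 scale (SE 0.319) and did not pass the interaction test (adjusted p = 0.942, edgeR). The coding sequences of Ppp1r14b and 4933415F23Rik shared 86.8% of 441 aligned bases. No 75-base window of 4933415F23Rik occurred in another gene, but 35.9% of those of Ppp1r14b occurred in the pseudogenes Gm7332 and Gm9103, so its level is uncertain. Ppp1r14a, a PP1 inhibitor of smooth muscle, and Ppp1r14c were not called in either muscle, and Ppp1r14d had at most 1 read. Of the list of PP1 inhibitors and myosin phosphatase subunits, 17 genes were tested in Gas, with none called, and 18 in Sol, with Ppp1r14b alone called. Their medians were -0.12 and -0.15.

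Around these genes, the lists of their known partners held no other call, where 0.0307% of all genes tested in Gas and 0.967% in Sol were called, so that few or no calls would be had from any list of this size. None of 38 proteasome subunits was called in either muscle. In Gas, 32 of them had negative log2 fold changes, with a median of -0.22, and in Sol 16 did, with a median of 0.03. Psmb10 and Psmb9, subunits of the immunoproteasome, were the lowest in Gas and in Sol respectively, at -0.86 and -0.57. None of 15 chaperones and VCP cofactors was called, with medians of 0.04 in Gas and 0.03 in Sol. Vcp itself had 0.30 in Sol (SE 0.121, adjusted p = 0.258, edgeR). None of 22 microtubule-associated genes was called, with medians of 0.19 and 0.13, and 18 of the 22 were positive in Gas. Of 15 acute-phase and lipocalin genes tested, none was called; the medians were -0.17 in Gas and -0.22 in Sol, and haptoglobin, Hp, had -0.88 (adjusted p = 0.426) and -1.27 (adjusted p = 0.227, edgeR).

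None of the genes beside the 5 in the genome that could be tested was called, where 0.0307% of all genes tested in Gas and 0.967% in Sol were called. Orm2 was below the filter, and Gm8251, beside Mettl21c, was not among the counted genes. Slc46a3 and Slc7a1 flank Mtus2 at 62.5 and 11.3 kb. Their log2 fold changes in Sol were 0.15 (SE 0.274) and 0.39 (SE 0.194), and neither was called. In Gas they were 0.48 (SE 0.19, adjusted p = 0.525, edgeR) and 0.29 (SE 0.313). The genotypes of Slc46a3 did not overlap in Gas, as for 6.94% of all genes tested there. Ercc5, a DNA repair gene that lies between the METTL21 paralogs at 22.8 kb from Mettl21e, had -0.15 (SE 0.201) in Gas and 0.16 (SE 0.125) in Sol. Tpp2, the gene of a large peptidase, lies 6.4 kb from Mettl21c and had 0.64 (SE 0.25, adjusted p = 0.525, edgeR) in Gas and 0.10 (SE 0.179) in Sol. Gulp1, on the other side of Mettl21e, had -0.28 (SE 0.288) and -0.43 (SE 0.172, adjusted p = 0.261, edgeR). Ogfrl1, 264.2 kb from 4933415F23Rik, had -0.31 (SE 0.231) and -0.27 (SE 0.215), and Rims1, on the other side, was below the filter.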

How the data were processed

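Reads were 75 bp, single-end, from poly(A) RNA. The authors aligned them to mm10 with STAR, and per the file headers the deposited values are raw read counts per gene, made with featureCounts 1.5.2 on exons of a UCSC annotation. The headers name no strand option, so overlapping and antisense genes cannot be separated. The authors' tables of comparisons (log2 fold change, log2 CPM, p-values) were not used. Per muscle, genes were kept by filterByExpr (minimum count 10), scaled by TMM and compared in edgeR 4.0.16 (R 4.3.3) with its two-sided quasi-likelihood F-test, with Benjamini-Hochberg adjustment over all genes tested and calls at 0.05. SEs were derived from the F statistics. Muscle contrasts and the interaction come from one fit of 16 libraries, as do the TMM-scaled CPM. Mtus2 in Gas and Orm3 in Sol were below the filter. The 5 genes, the gene lists and the tests were chosen with earlier results of these data known. Genes were named as members, as family, neighbours or the 3 most alike genes, or as list members called. Alternatives were RLE scaling, no filter, DESeq2 1.42.0, the exact test, a joint fit, the replicate block, a ribosomal covariate and leaving out each library. A block over the 10 LSD1-mKO libraries was added after seeing the data. The scripts were tested on simulated counts. Same-numbered LSD1-mKO libraries of the muscles correlated by 0.21 to 0.36 in their deviations from group means, each best with its own number, and WT libraries by -0.52 to 0.12. The block was therefore relied on only for muscle differences in LSD1-mKO. Its values for WT and for genotype are given only to show how far results moved. The labels do not say that libraries are separate mice, so p-values measure the spread between libraries. Positions and transcripts are from GENCODE M21 (GRCm38) and upstream sequences from RefSeq (GRCm38.p6), not the authors' annotation.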

Additional observations from a re-analysis of the deposited data

Results flagged for a closer look

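In LSD1-mKO Sol, library 4 stood apart for 4933415F23Rik. It held 1.75 CPM, the next library 0.532 CPM and the lowest 0.0855 CPM, so that the gap to the next library took 0.732 of the whole range of the 5 libraries. Of the 10 groups of 5 libraries examined, this was the one with such a gap. Chance gives such a gap in about 1 of 20 single groups, so 1 among the 10 groups examined may be chance. The gap was measured on CPM. On the log2 scale libraries 1 to 5 lay at -2.22, -0.64, -2.34, 0.90 and -0.79. Without library 4 the log2 fold change in Sol was -4.93.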

How the results depend on the processing

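The count of called genes moved with the test. In Gas it was 4 in the main analysis, 10 without a filter, 132 in DESeq2, 104 in the exact test and 62 in the fit of 16 libraries, and 1 to 7 without single libraries, 7 without WT Gas library 3. In Sol it was 129, then 336 without a filter, 605 in DESeq2, 560 in the exact test, 412 with the replicate block and 291 with the ribosomal covariate, and 11 (without WT Sol library 3) to 228 (without LSD1-mKO Sol library 5) without single libraries. Between muscles it was 1132 to 2839 in WT and 2618 to 4409 in LSD1-mKO without single libraries, and 5067 in the 10 LSD1-mKO libraries with the replicate block. The interaction was called for 21 genes in DESeq2, 1 with the replicate block and 0 to 1 without single libraries. The cause was not tested.

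The genotype log2 fold changes of the 5 genes kept their sign under each alternative that could be run. Without single libraries they spanned 2.69 to 3.32 for Mtus2 in Sol, -3.29 to -2.70 and -3.52 to -2.80 for Mettl21e in Gas and Sol, -3.24 to -2.20 and -0.76 to -0.15 for Mettl21c, -4.99 to -3.64 and -4.93 to -3.50 for 4933415F23Rik, and -4.58 to -3.74 for Orm3 in Gas. The muscle difference of Mtus2 in WT changed sign, from -0.36 to 0.27, as did Orm1 in Sol (-0.50 to 0.44) and Ppp1r14b in Gas (-0.07 to 0.20, and -0.10 with the replicate block). WT and LSD1-mKO libraries share only their numbers. LSD1-mKO libraries 4 and 5 have no WT library of their number and do not enter the block's genotype differences. Those differences thus rest on LSD1-mKO libraries that include libraries 1 and 3, the lowest for Mettl21e, Mettl21c and 4933415F23Rik. With the block, Mettl21e in Gas and Sol was -4.12 and -4.48, Mettl21c -4.67 and -2.01, 4933415F23Rik -7.00 and -5.33, and none of these passed in Gas (adjusted p = 0.198 to 0.216, edgeR). In WT, the block put the muscle difference of Mettl21e at -0.99 and of 4933415F23Rik at 1.28. Genes that averaged under 10 reads per library in both genotypes, as Mtus2 in Gas and Orm3 in Sol, were limited by depth.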
